A study of Saccharomyces cerevisiae with 6 samples.

Results

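The 31 genes described here encode the enzymes that build ergosterol from acetyl-CoA in *S. cerevisiae*, the electron donors these enzymes use, the paired transcription factors that activate them, and the enzymes that make and split sterol esters. They were listed by name from general knowledge of the pathway, with earlier results of these data known. All 31 were found among the 8898 features of the deposited tables. Counts came from RNA-seq of total RNA from 6 cultures, 3 of *rrp4-G226D* cells and 3 of *RRP4* cells. The cells of both groups are haploid BY4742 (MATα) with *ura3*, *leu2* and *his3* deletions and with the chromosomal *RRP4* gene deleted (*rrp4Δ::NEO*), as the sample labels give them, and each group lives on a centromeric *LEU2* plasmid (pRS315) as its sole source of Rrp4. The study's strain list gives the parent strain as MATa, a mating type that differs from the labels. It also lists a *lys2* deletion. In the *rrp4-G226D* cells this plasmid carries the Myc-tagged mutant allele, and in the *RRP4* cells the Myc-tagged wild-type gene. Rrp4 is a cap subunit of the RNA exosome, the complex that trims and degrades RNA from its 3′ end. All cultures were grown in medium without leucine and were held at 37°C for 5 h before collection, a temperature at which the mutant grows poorly, so slow growth and the mutation cannot be told apart in these libraries.

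Ergosterol is the main sterol of yeast membranes, with the role that cholesterol has in animal cells. Its synthesis starts with the mevalonate branch, in which acetyl-CoA units are joined and reduced. It continues through isoprenoid diphosphates to squalene, closes squalene into lanosterol, and then removes methyl groups and rearranges double bonds until ergosterol is reached. Several late enzymes need heme, iron, oxygen and electrons from the donors Ncp1 and Cyb5. When sterols run low, the related zinc-cluster proteins Upc2 and Ecm22 activate many *ERG* genes by binding a sterol regulatory element in their promoters. Surplus sterol is joined to fatty acids by Are1 and Are2 and stored in lipid droplets.

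Most of the pathway was expressed at a lower level in *rrp4-G226D* cells, by small amounts. Of the 31 mRNAs, 24 were lower with an adjusted p below 0.05, 1 was higher and 6 did not pass the test (edgeR's quasi-likelihood test, Benjamini-Hochberg adjustment over 7631 features). Over all features tested, 31% were lower and 28.6% higher by the same rule, and over open reading frames alone 37.5% were lower and 23.1% higher. All 3 *rrp4-G226D* libraries lay below all 3 *RRP4* libraries for 24 members and above them for 1, against 32.8% and 31.3% of all features and 39.7% and 25.4% of open reading frames. The median log2 fold change of the 31 genes was −0.27, from −0.91 for *ERG26* to 0.61 for *UPC2*. It was 0.01 over all features and −0.07 over the 5982 open reading frames tested. Only 5 members also changed by at least 1.5-fold, the rule for a call here. *ERG26*, *ERG10*, *ERG13* and *ERG4* were decreased, and *UPC2* was increased. By that rule 11.3% of all features were decreased and 12.7% increased, and among open reading frames 13.0% were decreased and 5.38% increased, so the 4 of 31 called decreased is near the background. Most of the 24 lower members had small changes.

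The direction of these small shifts rests on how the libraries are scaled. The values above use edgeR's TMM scaling (trimmed mean of M values), whose factors were 1.153 to 1.198 for *rrp4-G226D* libraries and 0.821 to 0.878 for *RRP4* libraries. As a share of all counts, the 31 mRNAs held 0.578% ± 0.00688 in *rrp4-G226D* libraries and 0.539% ± 0.0165 in *RRP4* libraries (SD, n = 3 each), so the share was larger in the mutant. As a share of the counts on open reading frames, they held 0.696% ± 0.0128 in *rrp4-G226D* libraries and 0.745% ± 0.0013 in *RRP4* libraries, so it was smaller. Open reading frames held a larger part of all counts in *rrp4-G226D* libraries than in *RRP4* libraries, which is how these shares can go opposite ways. When counts were scaled by library size alone, all features had a median of 0.46 and the 31 genes one of 0.18, with 16 members higher and 4 lower at an adjusted p below 0.05. Relative to the median of all features, the members' median was lower by 0.28 on the log2 scale with either scaling, and 29 of the 31 members lay below the median of all features with both. All features include noncoding transcripts. Relative to the median of open reading frames, the class of every member, the members' median was lower by 0.20 with both scalings, and 24 of the 31 members lay below it. A change of scaling moves all features by nearly the same amount. The agreement of these differences between scalings was thus fixed in advance and does not check the choice of scaling. When TMM factors were taken from open reading frames only, 18 members were lower at an adjusted p below 0.05 and 12 did not pass the test (edgeR). The genes that no longer passed were *ERG12*, *IDI1*, *ERG24*, *ECM22*, *ARE1* and *TGL1*, with adjusted p-values of 0.0825 to 0.182. The changes given below are on the TMM scale and are best read against that median.

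**Figure D1:**
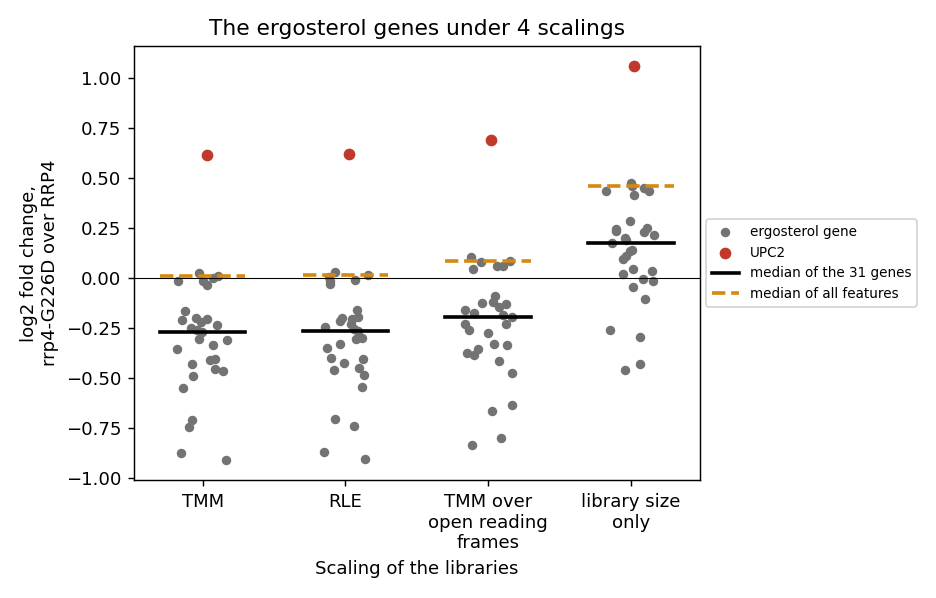
Log2 fold change (*rrp4-G226D* over *RRP4*, y axis) of the 31 genes under 4 scalings of the libraries (x axis); grey points are genes, the red point is *UPC2*, and the solid and dashed bars are the medians of the 31 genes and of all features tested. The members' median was −0.27 with TMM and 0.18 with library size only, while the median of all features was 0.01 with TMM and 0.46 with library size only.

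Depth was not a limit for any member. Total counts per library were between 7663545 and 12181979, and the lowest count of a member in a library was 344. Normalized counts below are TMM-scaled CPM, the counts of a library divided by its scaled total. *RRP4* itself had 281.1 to 301.5 normalized counts in *rrp4-G226D* libraries and 165 to 178.1 in *RRP4* libraries, but its reads do not separate the alleles and so cannot check the labels. Markers of the labelled strain were as follows in all 6 libraries. *URA3* had 0 counts, the α-factor gene *MF(ALPHA)1* had 1062 to 1483 normalized counts, and the a-factor genes *MFA1* and *MFA2* had at most 2.97. The α-specific gene *STE3* had 109.6 to 156.5 normalized counts, but the other α-factor gene, *MF(ALPHA)2*, had only 4.302 to 5.831. The a-specific gene *STE2* had 7.996 to 13.23, more than *MF(ALPHA)2* in every library. The 6 cultures are described by the study as independent biological replicates.

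Both regulators bind the sterol regulatory element, whose core reads TCGTATA. In the R64 genome, 10 of the 31 members (32.3%) held this core on either strand within 500 bases before the start codon, against 420 of 6000 protein-coding genes (7%). *ERG13*, *ERG25* and *ERG3* held it at 2 places each. The sites of these genes are shown with those of *ERG2*, the sterol isomerase gene, and of *ERG8*, a gene with the core whose mRNA did not pass the test. Each line reads toward the gene, on the gene's own strand, with the core in capitals; TATACGA is the core read on the other strand. Sequences are from RefSeq's R64 assembly.
*ERG13*, chrXIII:20731-20760, minus strand: cggaataagctTCGTATAtacaatagaaaa
*ERG13*, chrXIII:20618-20647, minus strand: gggctattaatTATACGAgtgtgttgaaag
*ERG25*, chrVII:610070-610099, plus strand: actgcctccctTCGTATAcgggacacagag
*ERG25*, chrVII:610090-610119, plus strand: ggacacagagaTCGTATAcggtaaacgact
*ERG3*, chrXII:253524-253553, plus strand: caaccggggtgTATACGAggccgatggctg
*ERG3*, chrXII:253564-253593, plus strand: aaaattcaggcTCGTATAagtggcacaata
*ERG2*, chrXIII:667341-667370, plus strand: aaccacggcccTCGTATAagccgcaaggaa
*ERG8*, chrXIII:712153-712182, plus strand: atgcgtttttcTATACGAgatctaaaagga

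The 10 members with the core were *ERG13*, *ERG8*, *ERG1*, *ERG25*, *ERG28*, *ERG6*, *ERG2*, *ERG3*, *CYB5* and *YEH1*. Their median log2 fold change was −0.38, against −0.24 for the 21 members without it, and both sets covered a wide range, from −0.74 to 0.03 with the core and from −0.91 to 0.61 without. Over all protein-coding genes tested, the median was −0.05 for 391 genes with the core and −0.09 for 5316 without. Of the 4 decreased members, only *ERG13* held the core in this window. A match to these letters is not a measured binding site, and its absence says nothing about Upc2 or Ecm22.

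In the mevalonate branch, the mRNAs of the opening pair of enzymes were decreased and those of the next enzyme were not. *ERG10* (YPL028W, chromosome XVI, 498096 to 499292, plus strand) encodes the acetoacetyl-CoA thiolase that joins the first acetyl-CoA units. It had 168.9, 157.1 and 162.7 normalized counts in *rrp4-G226D* libraries, against 292, 308.8 and 296.3 in *RRP4* libraries. The groups lay far apart, by −0.88 on the log2 scale (standard error, SE, 0.057, edgeR adjusted p = 1.03e-09). *ERG13* (YML126C, chromosome XIII, 19060 to 20535, minus strand), which encodes HMG-CoA synthase, had 184.8, 161.2 and 171.4 normalized counts in *rrp4-G226D* libraries, against 277.2, 292.9 and 296.9 in *RRP4* libraries. Again no library of one group reached those of the other, and the change was −0.74 (SE 0.062, edgeR adjusted p = 1.54e-08).

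HMG-CoA reductase, the main control point of the pathway, is made from the paralogs *HMG1* and *HMG2*. *HMG1* had 151.3, 148.7 and 144.4 normalized counts in *rrp4-G226D* libraries and 147.3, 142.1 and 152.5 in *RRP4* libraries. *HMG2* had 143.1, 134.8 and 153 in *rrp4-G226D* libraries and 154.3, 145.5 and 141.4 in *RRP4* libraries. For both genes the groups overlapped. The change was 0.01 for *HMG1* (95% interval −0.11 to 0.13, adjusted p = 0.906, edgeR) and −0.03 for *HMG2* (95% interval −0.17 to 0.10, adjusted p = 0.657, edgeR), so with TMM scaling a change of the size seen in *ERG10* lay outside both intervals. The paralogs were at nearly the same level, with *HMG1* to *HMG2* count ratios of 1.06, 1.10 and 0.944 in *rrp4-G226D* libraries and 0.954, 0.977 and 1.08 in *RRP4* libraries.

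The kinases and the decarboxylase that follow in the branch shifted little. *ERG8*, which encodes phosphomevalonate kinase, averaged 88.9 ± 3.23 normalized counts in *rrp4-G226D* cells and 87.2 ± 4.42 in *RRP4* cells (SD, n = 3 each), and did not pass the test (95% interval of the log2 change −0.11 to 0.16, adjusted p = 0.732, edgeR). *ERG12*, the mevalonate kinase gene, averaged 59.2 ± 2.50 in *rrp4-G226D* cells and 68.5 ± 4.61 in *RRP4* cells, a change of −0.21 (adjusted p = 0.0173, edgeR). *MVD1*, the mevalonate pyrophosphate decarboxylase gene, averaged 141.5 ± 19.7 in *rrp4-G226D* cells and 170.6 ± 7.39 in *RRP4* cells, a change of −0.27 (adjusted p = 0.00692, edgeR). Both were lower without reaching 1.5-fold. *MVD1* had the widest spread of the branch in the mutant, with 121.4 normalized counts in *rrp4-G226D* replicate 2 and 160.8 in replicate 1, close to the lowest *RRP4* library, which had 162.5.

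**Figure D2:**
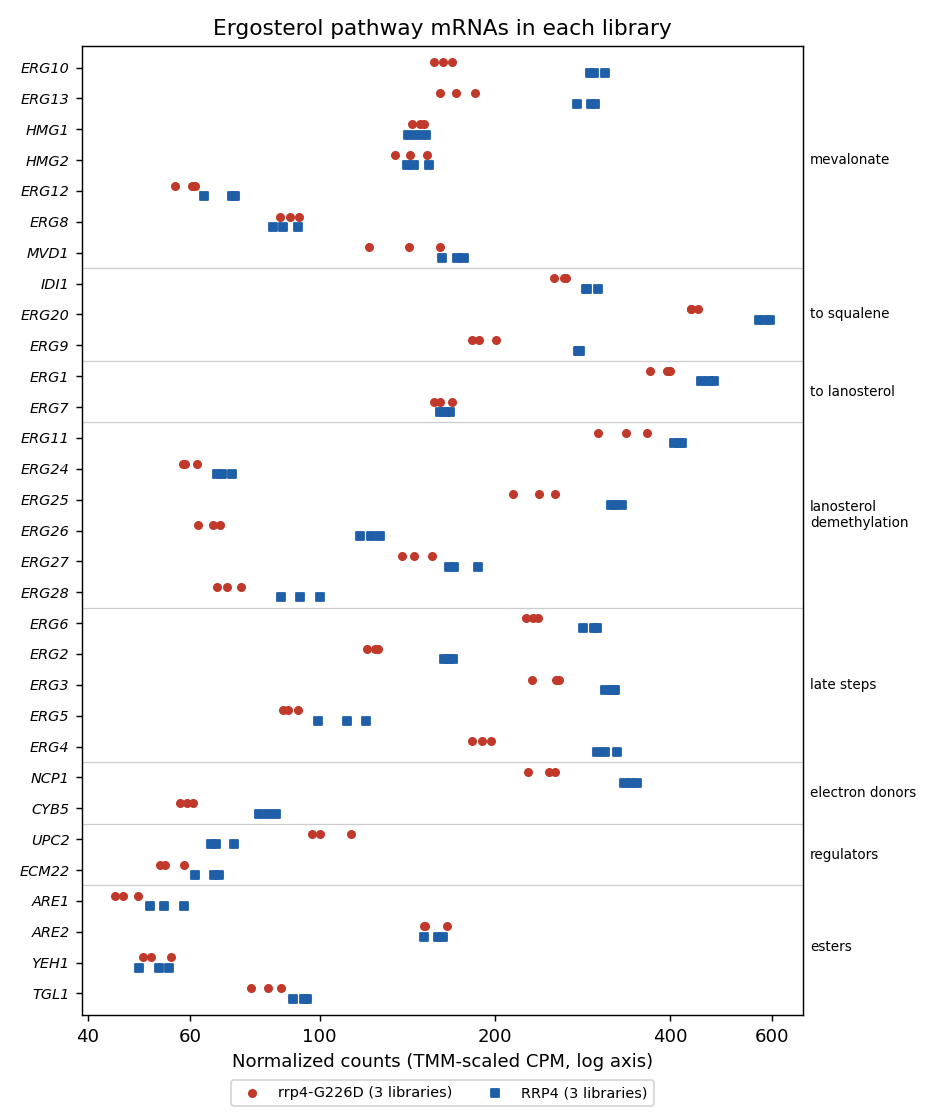
Normalized counts (TMM-scaled CPM, log x axis) of the 31 mRNAs in pathway order (y axis), with 1 point per library, red circles for *rrp4-G226D* and blue squares for *RRP4*. The groups are fully apart with *rrp4-G226D* lower for 24 mRNAs and with *rrp4-G226D* higher for *UPC2*; the other 6 overlap.

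The steps from isoprenoid diphosphates to squalene were all lower. *ERG20*, which encodes farnesyl diphosphate synthase, was the most abundant member per length in both groups, at 414 ± 6.47 CPM per kilobase of coding sequence in *rrp4-G226D* cells and 549 ± 11.7 in *RRP4* cells (SD, n = 3 each). Its change was −0.41 on the log2 scale (SE 0.057, edgeR adjusted p = 7.97e-06). *ERG9*, which encodes squalene synthase, the first enzyme committed to sterols, had 201.3, 187.6 and 182.7 normalized counts in *rrp4-G226D* libraries, against 278.3, 279.5 and 280.3 in *RRP4* libraries. With a change of −0.55 (SE 0.058, edgeR adjusted p = 2.43e-07) it lay just short of 1.5-fold, and without *rrp4-G226D* replicate 1 it passed, at −0.60. *IDI1*, the isopentenyl diphosphate isomerase gene, was lower by far less, at −0.17 (adjusted p = 0.0166, edgeR).

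Of the pair of genes that turn squalene into lanosterol, *ERG1*, the squalene epoxidase gene, averaged 388 ± 16 normalized counts in *rrp4-G226D* cells and 464.8 ± 12.3 in *RRP4* cells (SD, n = 3 each), a change of −0.26 (adjusted p = 0.000912, edgeR). *ERG7*, the lanosterol synthase gene, averaged 162.4 ± 6.27 in *rrp4-G226D* cells and 164.2 ± 3.21 in *RRP4* cells, and its groups overlapped (95% interval of the log2 change −0.14 to 0.10, adjusted p = 0.819, edgeR).

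The 6 genes of lanosterol demethylation were all lower in every *rrp4-G226D* library than in any *RRP4* library, and *ERG26* among them had the lowest log2 fold change of the 31 members. *ERG26* (YGL001C, chromosome VII, 495453 to 496502, minus strand) encodes the dehydrogenase that removes the carboxylated methyl carbon. It had 67.5, 65.5 and 61.9 normalized counts in *rrp4-G226D* libraries, against 127, 117.3 and 122.5 in *RRP4* libraries. The fitted change was a fall of 46.9%, a log2 fold change of −0.91 (SE 0.063, edgeR adjusted p = 1.77e-09).

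Erg26 works in a complex with Erg25, the sterol methyl oxidase, Erg27, a keto reductase, and Erg28, the scaffold that holds them at the endoplasmic reticulum. Their mRNAs did not move by the same amount. *ERG25* averaged 235.8 ± 19.5 normalized counts in *rrp4-G226D* cells and 323.2 ± 6.69 in *RRP4* cells (SD, n = 3 each), a change of −0.46 (adjusted p = 8.57e-06, edgeR). *ERG28* changed by −0.41 (adjusted p = 6.39e-05, edgeR) and *ERG27* by −0.25 (adjusted p = 0.00246, edgeR). The 95% intervals of these 3 changes, the lowest bound of which was −0.59, did not reach the interval of *ERG26*, −1.04 to −0.78; the differences between genes were not tested. Upstream of the complex, *ERG11*, which encodes the heme-containing lanosterol demethylase that azole antifungals inhibit, had 364.8, 301.2 and 336.4 normalized counts in *rrp4-G226D* libraries, against 414.2, 406.8 and 419 in *RRP4* libraries, a change of −0.31 (adjusted p = 0.000741, edgeR). *ERG24*, the gene of the sterol reductase that acts next, changed by −0.20 (adjusted p = 0.0134, edgeR).

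The 5 late steps, which turn zymosterol into ergosterol, were also all lower, with the last step lowest. *ERG4* (YGL012W, chromosome VII, 472855 to 474276, plus strand) encodes the reductase that forms ergosterol. It had 197, 182.9 and 189.9 normalized counts in *rrp4-G226D* libraries, against 324, 309.3 and 299.7 in *RRP4* libraries, a change of −0.71 (SE 0.058, edgeR adjusted p = 1.23e-08). The call of *ERG4* is close to the limit, since a test against a change of 1.5-fold (edgeR's glmTreat) gave an adjusted p of 0.0505. The other late genes formed a narrow band: *ERG2*, the sterol isomerase gene, at −0.43, *ERG3*, a desaturase gene, at −0.35, *ERG6*, the sterol methyltransferase gene, at −0.34 and *ERG5*, a second desaturase gene, at −0.31, each with an adjusted p of 0.000892 or less (edgeR).

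Both electron donors were lower too. *NCP1*, the reductase that passes electrons to Erg11 and other enzymes, averaged 243.3 ± 13.3 normalized counts in *rrp4-G226D* cells and 342.3 ± 8.95 in *RRP4* cells (SD, n = 3 each), a change of −0.49 (adjusted p = 1.45e-06, edgeR). *CYB5*, the cytochrome that can replace it for some steps, averaged 59.1 ± 1.59 in *rrp4-G226D* cells and 81.5 ± 2.64 in *RRP4* cells, a change of −0.46 (adjusted p = 7.42e-06, edgeR).

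**Figure D3:**
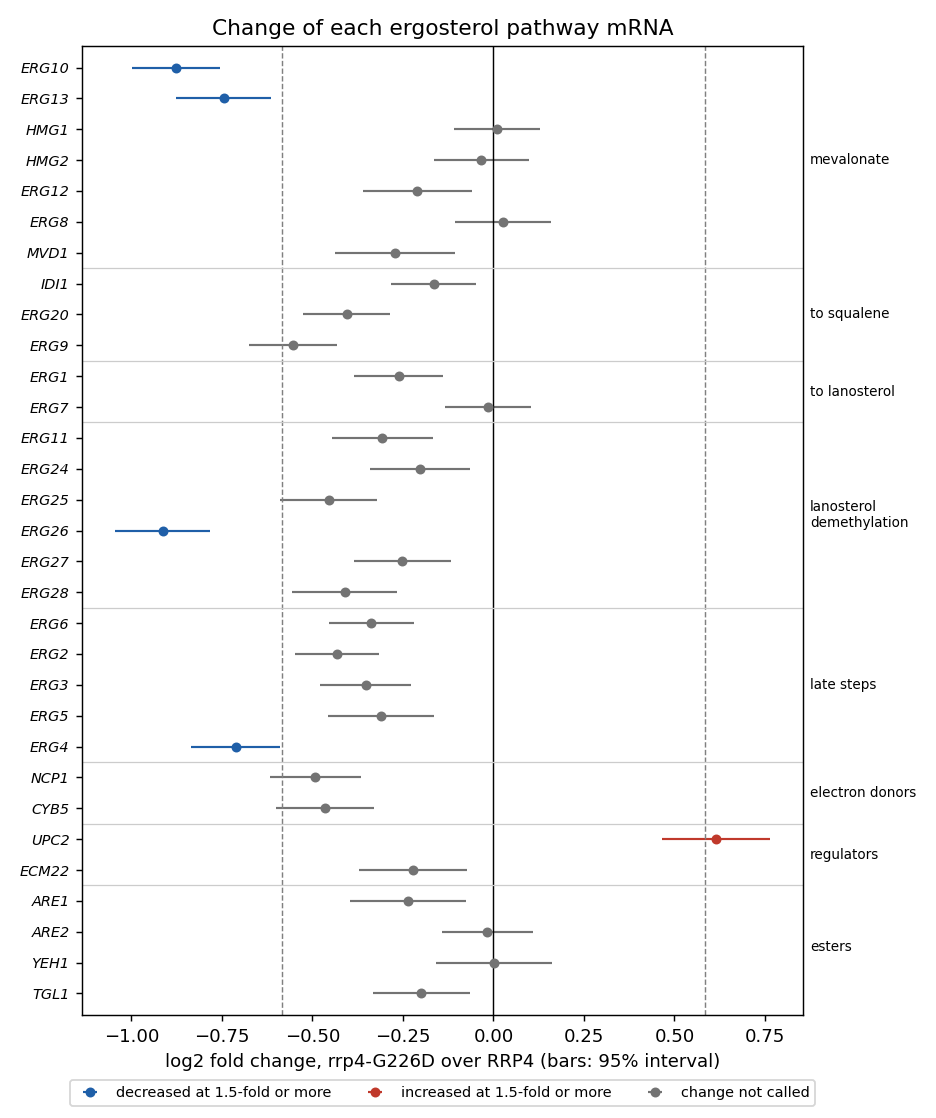
Log2 fold change of each member (*rrp4-G226D* over *RRP4*, x axis, TMM scaling) in pathway order (y axis), with 95% intervals from the edgeR fit; dashed lines mark 1.5-fold. Blue marks the 4 decreased genes *ERG10*, *ERG13*, *ERG26* and *ERG4*, and red the increased *UPC2*.

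The paralogous regulators differed in direction with TMM scaling, although *ECM22* was at 0.23 with library size only. *UPC2* (YDR213W, chromosome IV, 889751 to 892492, plus strand) had 100.1, 97 and 113.2 normalized counts in *rrp4-G226D* libraries, against 65.2, 71.2 and 66.3 in *RRP4* libraries, higher by 0.61 on the log2 scale (SE 0.071, edgeR adjusted p = 8.65e-07). *ECM22* (YLR228C, chromosome XII, 600019 to 602463, minus strand) had 53.1, 58.5 and 54.2 in *rrp4-G226D* libraries, against 65.8, 61.1 and 67.0 in *RRP4* libraries, a change of −0.22 (adjusted p = 0.0122, edgeR). No library of one group reached the other for either gene. Reads on *UPC2* per read on *ECM22*, a ratio within each library that no scaling alters, were 1.89, 1.66 and 2.09 in *rrp4-G226D* cells and 0.991, 1.17 and 0.989 in *RRP4* cells. The mean log2 ratio was 0.90 ± 0.17 in *rrp4-G226D* cells and 0.064 ± 0.14 in *RRP4* cells (SD, n = 3 each). The difference of 0.84 had an exact two-sided permutation p of 0.1, the smallest that 3 against 3 libraries allow (0.15 after adjustment over the 3 paralog pairs compared). The call of *UPC2* past 1.5-fold was lost without *rrp4-G226D* replicate 3, at 0.54, and without *RRP4* replicate 1, at 0.58, but the adjusted p stayed at 1.05e-05 or less in these fits (edgeR). A test against a change of 1.5-fold (glmTreat) gave *UPC2* an adjusted p of 0.661. Per length, the regulators were the least abundant members in *RRP4* cells, with 24.6 ± 1.16 CPM per kilobase for *UPC2* and 26.4 ± 1.29 for *ECM22*. In *rrp4-G226D* cells the values were 37.7 ± 3.12 for *UPC2* and 22.6 ± 1.17 for *ECM22*.

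Of the 4 genes of sterol ester turnover, 2 were lower at an adjusted p below 0.05 with TMM scaling and 2 did not pass the test. *ARE1*, the gene of the minor sterol acyltransferase, had 45.9, 44.5 and 48.7 normalized counts in *rrp4-G226D* libraries, against 58.5, 54.0 and 51.1 in *RRP4* libraries, a change of −0.24 (adjusted p = 0.0132, edgeR). Its paralog *ARE2*, the major acyltransferase gene, had 151.4, 165.7 and 151.7 in *rrp4-G226D* libraries and 159.9, 162.8 and 151.4 in *RRP4* libraries, and did not pass the test (95% interval −0.14 to 0.11, adjusted p = 0.818, edgeR). The *ARE1* to *ARE2* count ratio was 0.303, 0.269 and 0.321 in *rrp4-G226D* libraries and 0.366, 0.332 and 0.338 in *RRP4* libraries, a difference of −0.22 in the mean log2 ratio (exact two-sided permutation p = 0.1, the smallest possible; 0.15 adjusted over the 3 pairs). Of the ester hydrolase genes among the members, *YEH1* averaged 52.2 ± 3.04 in *rrp4-G226D* cells and 52.4 ± 3.16 in *RRP4* cells (SD, n = 3 each, adjusted p = 0.994, edgeR). *TGL1* changed by −0.20 (adjusted p = 0.0126, edgeR). *ARE1* shares 298 bases with YCR050C on the other strand, which had 26 counts in all *rrp4-G226D* libraries and 11 in all *RRP4* libraries. No other member overlaps a gene of the RefSeq annotation. Overlap with the noncoding transcripts (CUTs and SUTs) that were also counted was not checked.

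All members have a single coding exon, and every stretch of 100 bases in each of them occurs once in the genome, the paralog pairs included. The order of levels per length was nearly kept. *ERG20* ranked first in both groups, and *ERG10* had the largest step down, at rank 13 in *rrp4-G226D* cells and rank 8 in *RRP4* cells.

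Lists of genes around the pathway were also written from general knowledge, again with earlier results of these data known. Their counts stand against 12.7% of all features increased and 11.3% decreased, and against 28.6% higher and 31% lower at an adjusted p below 0.05; over open reading frames the shares were 5.38%, 13.0%, 23.1% and 37.5% in the same order. Of 23 names listed for sterol transport, export, acetylation and ester hydrolysis, 22 were found in the deposited tables, and 1 of these genes was increased. At an adjusted p below 0.05, 8 were higher and 6 lower (edgeR), and the median log2 fold change of the list was 0.06. The increased share was 4.55%. The increased gene was *HES1*, which encodes an oxysterol-binding protein, with 59.95 ± 5.24 normalized counts in *rrp4-G226D* cells and 32.7 ± 0.799 in *RRP4* cells (SD, n = 3 each), a change of 0.87 (adjusted p = 8.30e-08, edgeR). Among 15 genes that control sterol synthesis, 2 were decreased, 6 were lower and 4 higher at an adjusted p below 0.05, and the decreased share of 13.3% was near that of open reading frames. *NSG1*, which encodes an Insig-like protein that stabilizes Hmg2, changed by −0.88 (adjusted p = 2.48e-08, edgeR). *UBC7*, the ubiquitin-conjugating enzyme through which Hmg2 is degraded, changed by −0.60 (adjusted p = 4.63e-07, edgeR). With TMM over open reading frames only, and also with glmTreat, 1 gene of this list was decreased.

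Among 16 genes of other branches that use isoprenoid diphosphates, 8 were lower and 1 was higher at an adjusted p below 0.05, with a median of −0.27, equal to that of the pathway to 2 decimals. Of these 16 genes 1 (6.25%) was decreased, *NUS1*, of dolichol synthesis, at −0.66 (adjusted p = 3.31e-06, edgeR). Of 8 heme synthesis genes, 5 were lower, with a median of −0.24, and 1 (12.5%) was decreased, *HEM4*, the uroporphyrinogen synthase gene, at −0.64 (adjusted p = 4.18e-05, edgeR). With TMM over open reading frames only, and also with glmTreat, 0 genes of either list were decreased. The heme list also had 0 decreased without *RRP4* replicate 2.

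**Figure D4:**
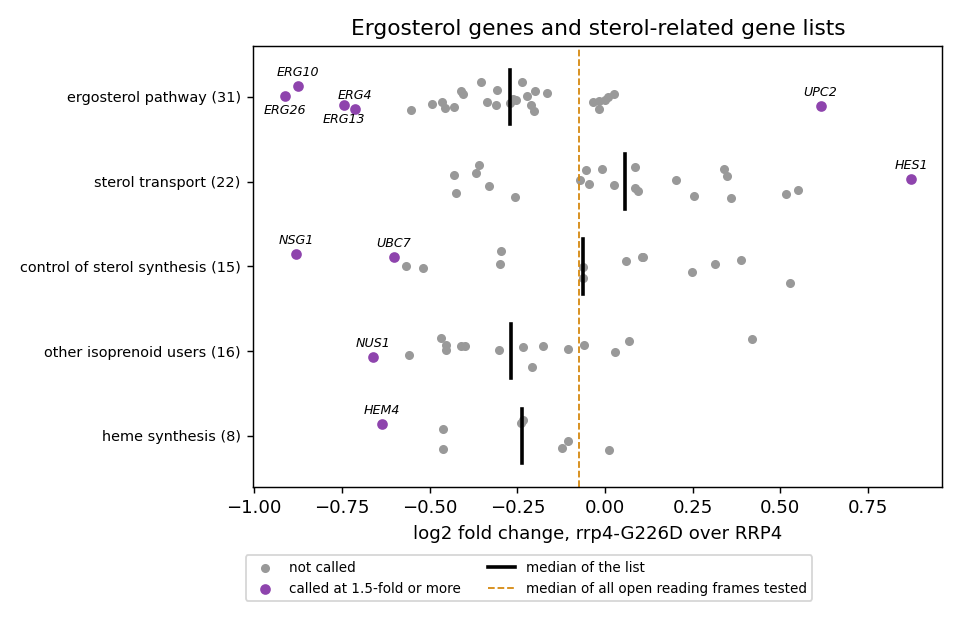
Log2 fold change (*rrp4-G226D* over *RRP4*, x axis, TMM scaling) of the 31 members and of the tested genes of 4 sterol-related lists (y axis, number of genes in parentheses); black bars are list medians, and the dashed line is the median of all open reading frames tested, −0.07. Purple points, labelled by gene, passed an adjusted p below 0.05 and 1.5-fold.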

How the data were processed

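The authors mapped paired reads of rRNA-depleted, stranded libraries with STAR to R64-1-1 with CUT and SUT annotations, and deposited raw counts per feature from featureCounts 1.6.4 (submitters' processing notes). The strand setting and the treatment of reads with several matches are not given in the sources used here. A deposited table of the authors' DESeq2 comparison holds a mean normalized signal over all libraries, fold changes and p-values; it was used only to pair gene names with identifiers.

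Counts were tested with edgeR 4.0.16 (R 4.3.3) by the quasi-likelihood test, with TMM scaling, filterByExpr and genotype as the only term, and adjusted p-values were computed over all 7631 features tested. All 31 members passed the filter. A call needed an adjusted p below 0.05 and 1.5-fold. The standard error is the size of the log2 fold change over the square root of F, and 95% intervals use the t distribution. DESeq2 1.42.0 was an alternative, as were other scalings, filters, thresholds, a replicate block and leaving out each library. Replicate numbers were not used as pairs in the main fit. The deviations of same-numbered libraries correlated at 0.0177, 0.0917 and −0.105, against −0.166 to 0.166 for differently numbered ones. So few libraries cannot show whether cultures were paired. The fits were also run on simulated counts with as many planted increases as decreases. That simulation did not test the choice of scaling. Levels per length use the RefSeq coding length, and promoter windows, positions and sequences come from RefSeq's R64 assembly (Python 3.11.15). Lists and members were chosen with earlier results of these data known. All members are named; of the other lists, called genes only.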

Additional observations from a re-analysis of the deposited data

How the results depend on the processing

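With DESeq2, RLE normalization, no filter on low counts and robust dispersion, each of the 31 genes kept its direction and its side of the threshold. With library size only, the members' median log2 fold change was 0.18, and 0 members were decreased at 1.5-fold, although 4 were lower at an adjusted p below 0.05 (edgeR); *ERG10* (−0.43), *ERG13* (−0.30), *ERG26* (−0.46) and *ERG4* (−0.26) stayed negative. That scaling turned 19 genes positive, at 0.42 for *HMG2*, 0.24 for *ERG12*, 0.18 for *MVD1*, 0.28 for *IDI1*, 0.0425 for *ERG20*, 0.19 for *ERG1*, 0.43 for *ERG7*, 0.14 for *ERG11*, 0.25 for *ERG24*, 0.20 for *ERG27*, 0.0366 for *ERG28*, 0.11 for *ERG6*, 0.0176 for *ERG2*, 0.10 for *ERG3*, 0.14 for *ERG5*, 0.23 for *ECM22*, 0.21 for *ARE1*, 0.43 for *ARE2* and 0.25 for *TGL1*. It gave 2880 increased and 152 decreased features, against 968 and 864 with TMM, and 95% of its calls were increased, against 52.8% with TMM and 63.4% with TMM over open reading frames only. That last scaling gave a members' median of −0.19, and turned *HMG2* (0.0431), *ERG7* (0.0609) and *ARE2* (0.0599); a mean count of at least 50 gave −0.23 and turned the same genes, at 0.0057, 0.0233 and 0.022.

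With the adjusted p alone, 24 members, 2363 features and 25 genes of the other lists were decreased, and 2181 features and 13 genes of the other lists increased. At 2-fold, edgeR called 0 members and 0 genes of the other lists in either direction, as no called one changed by 2-fold, and 411 features increased and 189 decreased. With glmTreat, 347 features were increased and 445 decreased, with 3 members decreased and 0 increased. In the other lists, glmTreat left 1 gene increased and 1 decreased. In the other lists, 1 increased gene became 13 with library size only, 4 with TMM over open reading frames only and 2 with a mean count of at least 50; 4 decreased became 0 with library size only and 1 with TMM over open reading frames only.

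Leaving out 1 library at a time gave 0 to 1 increased and 4 to 5 decreased members, a median of −0.34 to −0.27, and 1 to 2 increased and 3 to 5 decreased genes in the other lists; the lowest median came without *rrp4-G226D* replicate 1. Genes near 0 changed sign in some of these fits, which gave −0.0173 to 0.028 for *HMG1*, −0.0104 to 0.0686 for *ERG8*, −0.0725 to 0.0052 for *ARE2*, −0.0554 to 0.0377 for *YEH1* and −0.0043 to 0.1084 for the difference in the *HMG1* to *HMG2* log2 ratio. With a replicate block, *YEH1* was at −0.003, the members' median was −0.28 and the numbers of members called did not change.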
